A study of Homo sapiens with 8 samples.

Results

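The mRNAs described here are the 7 that the human mitochondrial genome encodes for respiratory complex I, MT-ND1, MT-ND2, MT-ND3, MT-ND4, MT-ND4L, MT-ND5 and MT-ND6. They were chosen by transcript identifier, and all 7 were listed among the 38314 transcripts of both tables, with none missing. The structure of RNA was read in HEK293T, an established line from human embryonic kidney, in cells labelled either as control (genotype WT) or as TDP-43 knockdown. Cells received 100 mM NAI, which acylates the 2'-hydroxyl of flexible nucleotides, or 5% DMSO as background, for 15 min at 37 °C. The 8 libraries form 4 groups of 2 replicates, and all were made from poly(A)-selected RNA. The labels used here do not say how TDP-43 was knocked down or for how long. Each table holds 1 combined summary per transcript and condition, so replicate spread is not available for any difference below and no test was run.

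Complex I is the first enzyme of the respiratory chain: it passes electrons from NADH to ubiquinone and pumps protons across the inner mitochondrial membrane. Its membrane arm is built around the mitochondrially encoded ND subunits, while its other subunits come from nuclear genes. TDP-43 binds RNA and DNA, regulates splicing, and is found in aggregates in amyotrophic lateral sclerosis. It has been reported to bind the mRNAs of MT-ND3 and MT-ND6. MT-ND6 is the only mRNA of the mitochondrial genome encoded on the light strand. It is guanine-rich, whereas the other mitochondrial mRNAs are guanine-poor, and it is known to carry little or no poly(A) tail. All libraries here came from poly(A)-selected RNA, and how many reads lie behind the MT-ND6 values is not known. The series title concerns TDP-43 and RNA G-quadruplexes, folds of guanine-rich RNA; the tables hold no measurement of binding and no values for single nucleotides.

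For each transcript the authors deposited the average, the standard deviation and the maximum of reactivity along the transcript, as scores of unstated scale. They also deposited the Gini index, a fraction that is 0 when reactivity is spread evenly over all positions and nears 1 when few positions carry it. The number of positions behind each average was recovered from the deposited digits. It was 20 fewer than the RefSeq length of the gene in every one of the 7, and no other number up to that length fitted the digits, so the identifiers and the gene names go together. MT-ND1 (ENST00000361390) lies at positions 3307 to 4262 of the mitochondrial genome (GRCh38.p14) and was summarised over 936 positions. MT-ND2 (ENST00000361453) lies at 4470 to 5511 and had 1022 positions. The gene of MT-ND3 (ENST00000361227) spans 10059 to 10404, with 326 positions summarised. MT-ND4L (ENST00000361335, 10470 to 10766, 277 positions) and MT-ND4 (ENST00000361381, 10760 to 12137, 1358 positions) overlap by 7 bases and are known to share 1 mRNA. MT-ND5 (ENST00000361567, 12337 to 14148, 1792 positions) is followed directly by MT-ND6 (ENST00000361681, 14149 to 14673, 505 positions) on the opposite strand. Whether the authors' alignment used strand is not given in the sources used here. Without strand, reads from MT-ND6 and from the opposite strand at that site could not be told apart. RefSeq also names 255 nuclear pseudogenes after these 7 genes, from 25 for MT-ND3 to 45 for MT-ND5, and how reads that match both were assigned is not given either.

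In control cells the 7 mRNAs were more reactive and more evenly reactive than most transcripts. Their average reactivity ran from 0.218 to 0.285 with a median of 0.237, against a median of 0.190 over all transcripts, and their Gini index ran from 0.672 to 0.754 with a median of 0.740, against 0.837. MT-ND6 stood apart within the group, with the highest average and the lowest Gini index of the 7. The other 6 lay close together, between 0.218 and 0.247 in average and between 0.720 and 0.754 in Gini index. The order from the highest average was MT-ND6, MT-ND2, MT-ND5, MT-ND4, MT-ND3, MT-ND1 and MT-ND4L. Without replicate values it cannot be said which neighbours in this order differ.

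In TDP-43 knockdown 5 of the 7 had a higher average (MT-ND1, MT-ND2, MT-ND3, MT-ND4 and MT-ND5), where 49.5% of all transcripts were higher, and 2 had a lower one (MT-ND4L and MT-ND6), where 50.5% were lower. The Gini index was lower in 6 of the 7, where 36.2% of all transcripts were lower. That share was 46.2% without the 25% of transcripts lowest in average over both conditions. It was 74.2% among transcripts with a control average at or above that of MT-ND6, a set that holds none of these 6. Transcripts in a band around the control values of the 6 were not compared. The Gini index was higher in MT-ND6, in common with 63.8% of all transcripts. Reactivity was thus more evenly spread in knockdown along every complex I mRNA but MT-ND6. The differences in average were small: none of the 7 was at least 1.5-fold higher, as 15.1% of transcripts were, or at least 1.5-fold lower, as 2.39% were, and the largest fold was 1.249, in MT-ND5. At least 1.1-fold, a threshold set after the values were seen, 5 were higher (42.5% of all transcripts) and 1, MT-ND6, was lower (40.4%). The direction of the average depends on scale. When each condition was divided by its mean over all transcripts, which lowers every log2 ratio by 0.20, MT-ND1, MT-ND2 and MT-ND3 came out lower in knockdown and MT-ND4 and MT-ND5 remained higher. The lower average and higher Gini index of MT-ND6 kept their direction under each scaling tried. For the Gini index the index itself was divided, which is not a rescaling of reactivity.

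**Figure D1:**
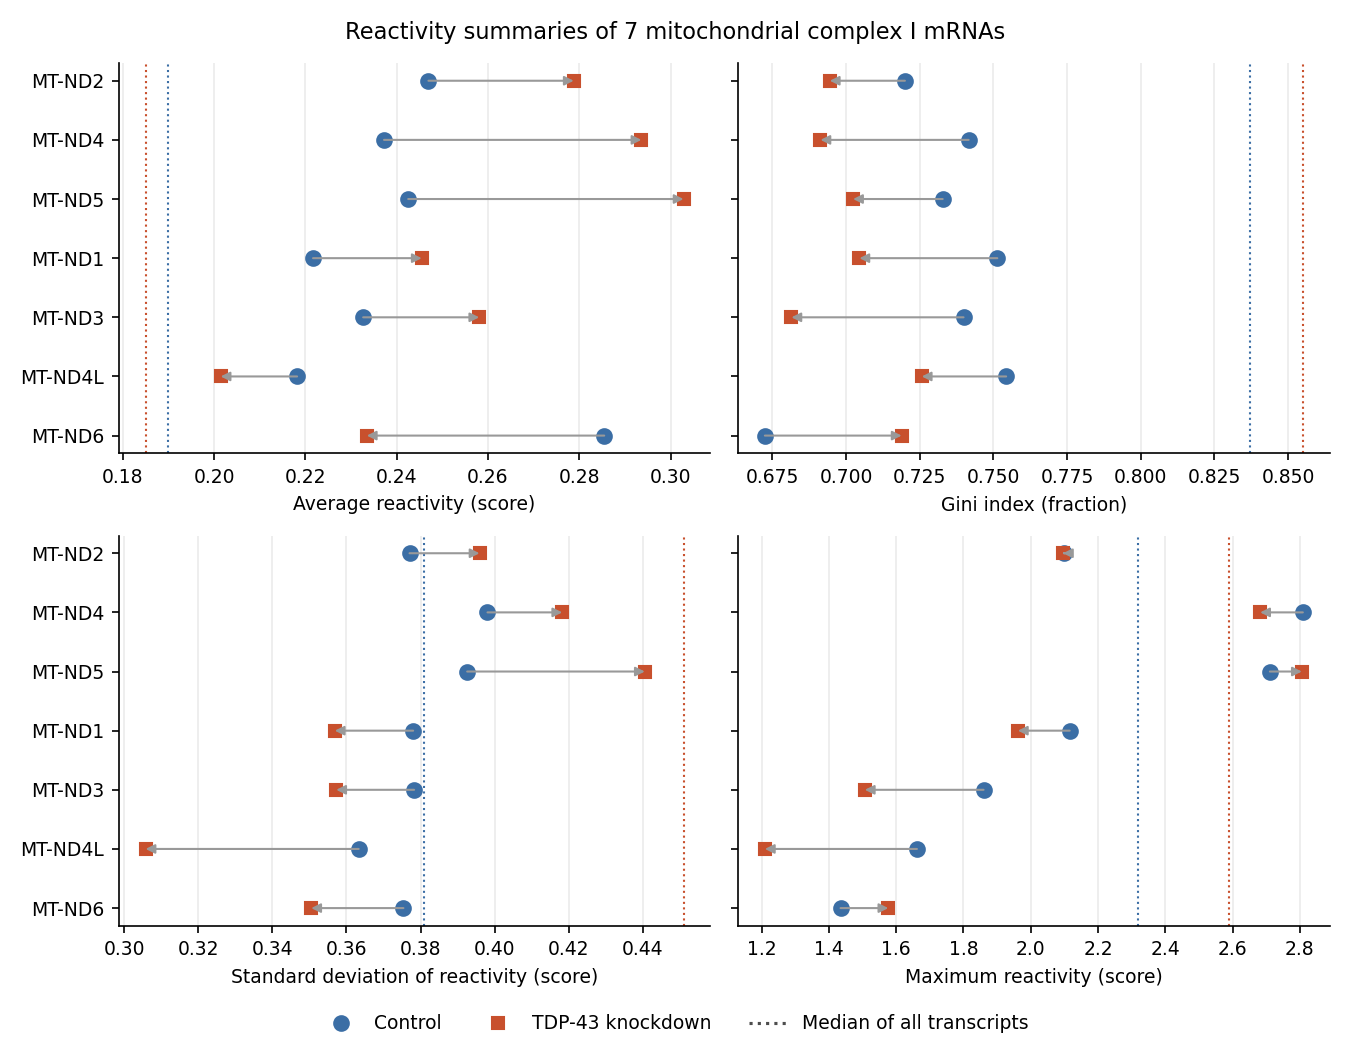
Average reactivity, Gini index, standard deviation and maximum of the 7 complex I mRNAs in control (circles) and TDP-43 knockdown (squares), 1 combined value per condition, with arrows from control to knockdown and dotted lines at the medians of all transcripts (horizontal axes do not start at 0). The average of MT-ND6 moves from 0.285 to 0.233 while that of MT-ND5 moves from 0.243 to 0.303, and only MT-ND6 moves to a higher Gini index.

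MT-ND2, MT-ND4 and MT-ND5 encode the antiporter-like subunits that form the proton-pumping part of the membrane arm, and they had the 3 highest averages in knockdown. The average of MT-ND5 was 0.243 without and 0.303 with knockdown, a ratio of 1.249, and MT-ND4 had 0.237 and 0.294, a ratio of 1.24. MT-ND2 had 0.247 and 0.279, a ratio of 1.13. The Gini index of MT-ND5 was 0.733 without and 0.702 with knockdown, against 0.742 and 0.691 for MT-ND4 and 0.720 and 0.694 for MT-ND2. All 3 thus carried more reactivity, spread more evenly. They were also the 3 members with a higher standard deviation in knockdown, where 55.1% of all transcripts had a higher one. It was 0.393 and 0.441 in MT-ND5, 0.398 and 0.418 in MT-ND4, and 0.377 and 0.396 in MT-ND2. With each condition divided by its median over all transcripts all 3 standard deviations came out lower instead. Their maxima hardly differed, at 2.71 in control and 2.81 in knockdown for MT-ND5, 2.81 and 2.68 for MT-ND4, and 2.10 in both for MT-ND2. The higher averages of these long mRNAs were thus not matched by a like difference at the most reactive position.

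MT-ND1 encodes the subunit that holds much of the ubiquinone-binding channel. Its average was 0.222 without and 0.245 with knockdown, a ratio of 1.11, with a Gini index of 0.751 and 0.705. Its standard deviation was lower in knockdown, at 0.378 and 0.357, and so was its maximum, at 2.12 and 1.96. The mean square of reactivity, which weights strongly reactive positions most, was slightly lower (0.192 and 0.188) although the average was higher.

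MT-ND3, MT-ND4L and MT-ND6 encode small membrane subunits at the base of the membrane arm, near its joint with the arm that carries the electrons, and these mRNAs did not move together. MT-ND3, a reported TDP-43 target, averaged 0.233 without and 0.258 with knockdown, a ratio of 1.11. Its Gini index was 0.740 and 0.681, the largest decrease of the 7, and 14.8% of all transcripts had a larger decrease. Its maximum was 1.86 and 1.51 and its standard deviation 0.378 and 0.357, so MT-ND3 resembled MT-ND1: more reactive on average, with lower peaks. This joint pattern (maximum lower, average higher, standard deviation lower, Gini index lower) was found in MT-ND1 and MT-ND3 and in 1.79% of all transcripts. It was also found in 3 of the other 6 mitochondrial mRNAs, MT-CO1, MT-CO2 and MT-CO3, which encode subunits of cytochrome c oxidase. The joint patterns counted were read from the members' own values. Those of the other members were held by 5.99% (MT-ND2 and MT-ND4), 4.23% (MT-ND4L), 22.3% (MT-ND5) and 13.8% (MT-ND6) of all transcripts. With each condition divided by its mean over all transcripts, the averages of MT-ND1 and MT-ND3 came out lower instead.

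MT-ND4L, the shortest of the 7, was lower in knockdown in all 4 measures, as were 4.23% of all transcripts. MT-ATP8 had the same combination of directions, though its average hardly differed, with a ratio of 0.990. The gene of MT-ATP8 overlaps that of MT-ATP6 by 46 bases. The average of MT-ND4L was 0.218 without and 0.201 with knockdown, and its Gini index 0.754 and 0.726. Its standard deviation was 0.363 and 0.306, and its maximum 1.66 and 1.21. The maximum, 1.37-fold lower, was the largest fold in any measure among the 7. MT-ND4, which shares an mRNA with MT-ND4L, had a higher average in knockdown, and so did MT-ATP6, with a ratio of 1.17.

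MT-ND6, the other reported target, averaged 0.285 without and 0.233 with knockdown, 1.22-fold lower, while its Gini index was 0.672 and 0.719. As an absolute difference, 4.70% of all transcripts had a larger decrease in average, and as a ratio 24.1% had a larger one. A larger increase in Gini index was found in 4.90%. Its standard deviation was 0.375 and 0.350, and its maximum 1.44 and 1.58. Reactivity along MT-ND6 was thus lower in total and more concentrated in knockdown, with a higher peak. Maxima were lower in knockdown in 5 of the 7 mRNAs, where 29.4% of all transcripts were lower, and higher in MT-ND5 and MT-ND6, where 60.3% were higher. The higher maximum of MT-ND6 came out lower with division by the median of all transcripts.

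MT-ND6 also went against most of the transcripts that were at least as reactive as it was in control. Of the 2854 transcripts with a control average at or above that of MT-ND6, 3.92% had a lower average in knockdown. A higher Gini index was found in 25.8% of them, and both together in 3.75%, against 45.2% of all transcripts. This comparison was chosen after the values of MT-ND6 were seen, and with no replicate values it is a description. MT-ND6 lies at the lower edge of that set, and transcripts in a band around its value were not compared. Of the 22122 transcripts whose number of positions lay in the range of the 7 members, 47.7% were lower in average. In Gini index 54% of them were higher, and both together held for 42%.

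**Figure D2:**
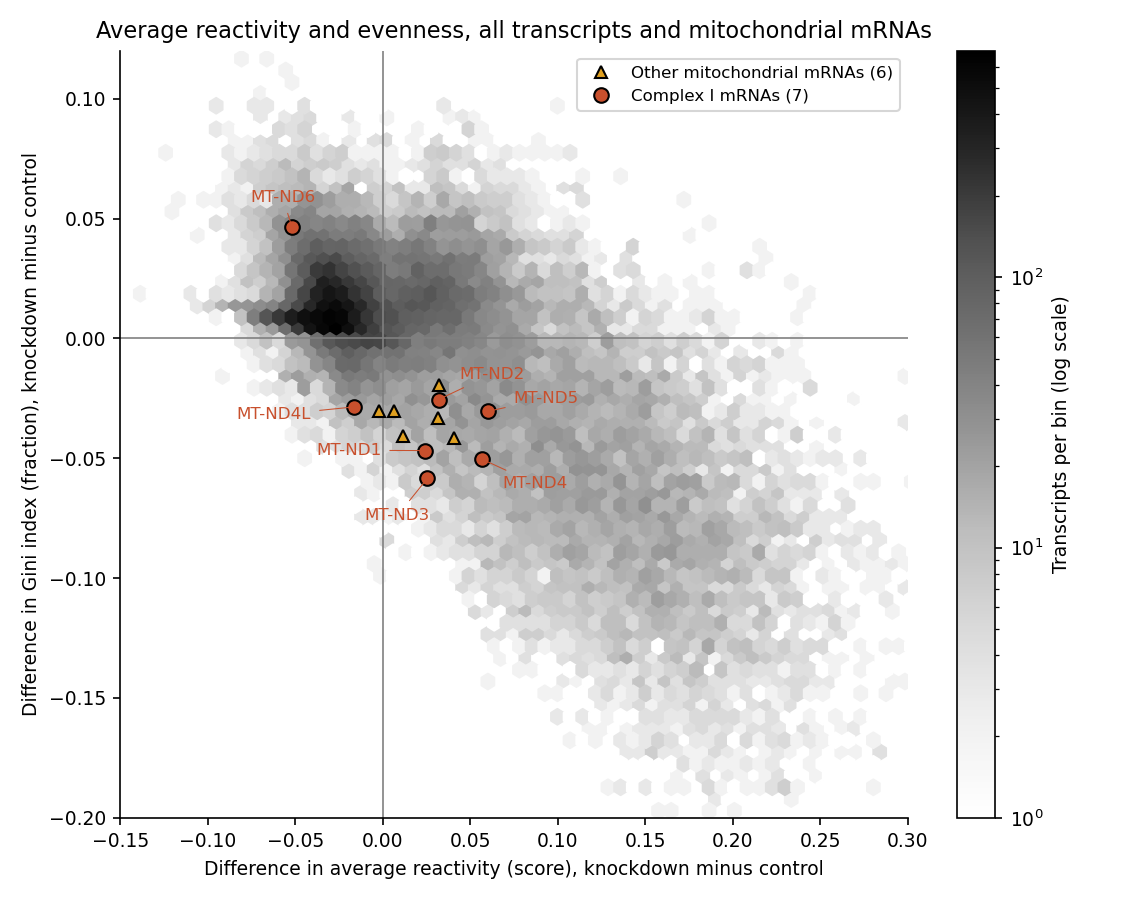
Difference in average reactivity (horizontal) against difference in Gini index (vertical), knockdown minus control, with all transcripts as grey bins (log scale; 157 transcripts lie outside the axes), the 7 complex I mRNAs as circles and the other 6 mitochondrial mRNAs as triangles. MT-ND6 lies at -0.052 and 0.046, on the opposite side of both zero lines from MT-ND1, MT-ND2, MT-ND3, MT-ND4 and MT-ND5, and the 12 other mitochondrial mRNAs all lie below 0 in Gini index.

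The same split appeared in how many positions must carry reactivity. This is a further reading of evenness from the same summaries, so it is not separate from the Gini index. From the average and the standard deviation follows a lower bound for the share of positions that are not at 0. In control it was 25.6% for MT-ND1, 26.2% for MT-ND4, 26.5% for MT-ND4L, 27.4% for MT-ND3, 27.6% for MT-ND5 and 30.0% for MT-ND2, with MT-ND6 above them at 36.6%. In knockdown the bound was higher in those 6, where 36.4% of all transcripts were higher, and lower in MT-ND6, where 63.6% were. The 7 then lay within a narrow band, from 30.3% in MT-ND4L and 30.7% in MT-ND6 to 34.3% in MT-ND3. In positions, the bound was 186 of the 505 of MT-ND6 in control and 156 in knockdown, while for MT-ND3 it was 90 and 112 of 326. The single most reactive position held 0.995% of the total reactivity of MT-ND6 in control and 1.34% in knockdown, and 59.9% of all transcripts had a larger share in knockdown. In the other 6 that share was smaller, as in 40.1% of all transcripts, for example 2.45% and 1.79% in MT-ND3. This share tends to be larger in shorter transcripts, though not in every pair.

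**Figure D3:**
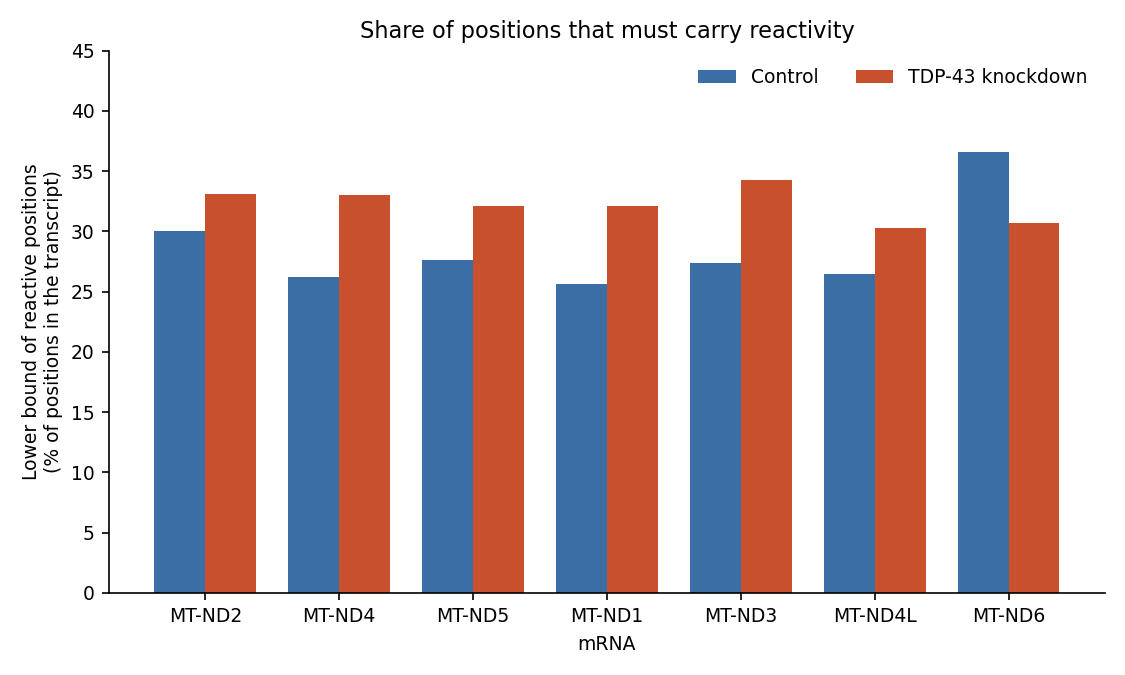
Lower bound of the share of positions that carry reactivity, in percent of the positions of each complex I mRNA, for control and TDP-43 knockdown (bars from 0, 1 combined value each, no error available). The bound is higher in knockdown for 6 mRNAs and lower for MT-ND6, from 36.6% to 30.7%.

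Placed among all transcripts of the same condition, every one of the 7 held a lower percentile of average reactivity in knockdown than in control, as 51.6% of all transcripts did. MT-ND6 went from percentile 92.6 to 64.5, the largest shift. MT-ND2 went from 84.6 to 73.1, MT-ND4L from 67.9 to 55.9, MT-ND3 from 76.9 to 69.6, MT-ND5 from 82.4 to 76.3, MT-ND4 from 79.5 to 75.1 and MT-ND1 from 71.0 to 67.1. So the 5 mRNAs with a higher average in knockdown ranked lower among the transcripts of their condition. In Gini index MT-ND6 went from percentile 8.7 to 25.0. The other 6 stayed between percentiles 16.0 and 27.4 in control and between 19.9 and 26.1 in knockdown, and MT-ND2 and MT-ND5 took a higher percentile although their Gini index was lower.

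**Figure D4:**
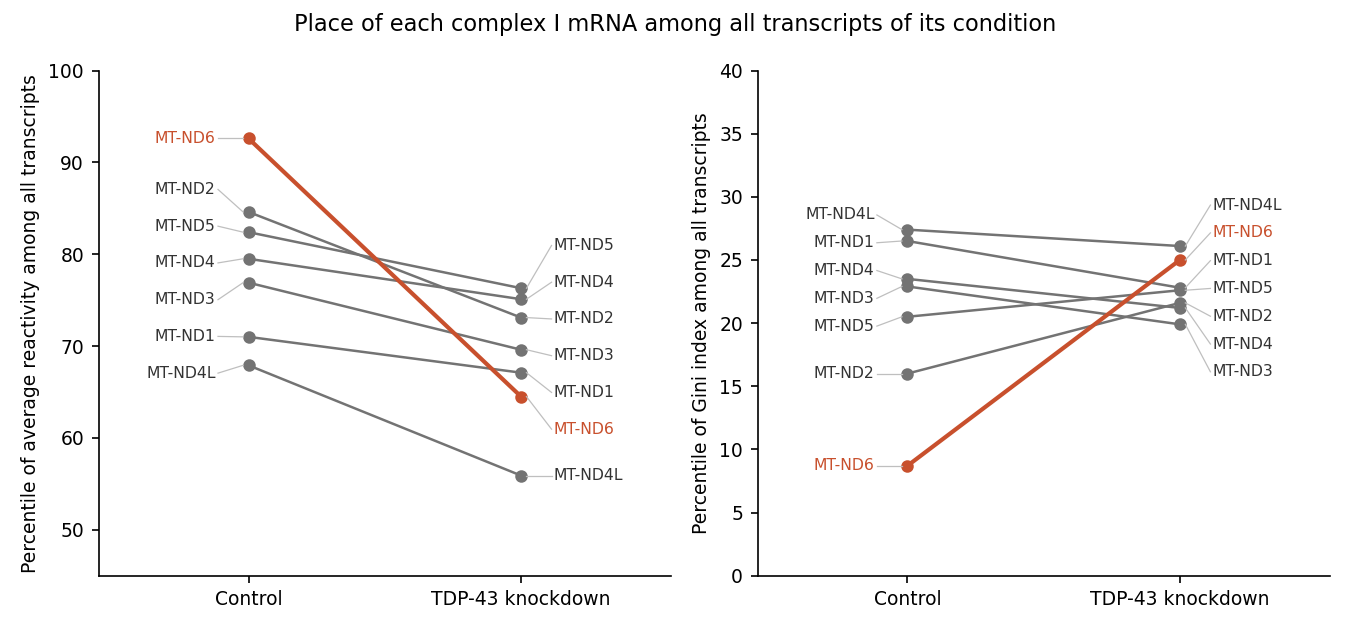
Percentile of each complex I mRNA among all 38314 transcripts of its condition, for average reactivity (left) and the Gini index (right), control against TDP-43 knockdown; the vertical axes cover part of the range. MT-ND6 crosses each of the others but MT-ND4L, from percentile 92.6 to 64.5 in average and from 8.7 to 25.0 in Gini index.

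Among the members the difference in average went with the number of positions summarised, which is not always the length of the mRNA. The log2 ratio of knockdown over control was 0.32 in MT-ND5, 0.31 in MT-ND4, 0.17 in MT-ND2, 0.15 in MT-ND1 and MT-ND3, -0.12 in MT-ND4L and -0.29 in MT-ND6. Across these 7 its correlation with the number of positions was 0.75 (Pearson r) and 0.82 (Spearman rho). Across all 13 mitochondrial mRNAs, which include the 7, it was 0.69 and 0.74. These are descriptions of entries that share libraries and scale, and MT-ND4L and MT-ND4 lie on 1 mRNA. Across 38288 transcripts with a recovered number of positions the Pearson r was 0.0 and the Spearman rho 0.1. Over the 7, the average itself had a Spearman rho with positions of 0.46 in control and 0.89 in knockdown, and a Pearson r of 0.01 and 0.86. Average and Gini index ran opposite to each other in control, with a rho of -0.96, and less closely in knockdown, with -0.68.

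The other 6 mRNAs of the mitochondrial genome, for subunits of complexes III, IV and V, lay on the same side as most complex I mRNAs. Their names were assigned by identifier, and in each the positions were again 20 fewer than the RefSeq length. Of these 6, 5 had a higher average in knockdown, with ratios from 1.03 in MT-CO2 to 1.17 in MT-ATP6, and MT-ATP8 had a ratio of 0.990. All 6 had a lower Gini index, with differences from -0.0416 in MT-ATP6 to -0.0196 in MT-CYB, against -0.0584 in MT-ND3 to -0.0255 in MT-ND2 among the 6 complex I mRNAs with a lower index. MT-ND6 was the only one of the 13 with a higher Gini index in knockdown, a difference of 0.046. Whether MT-ND6 differs from the rest beyond replicate spread could not be tested.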

How the data were processed

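Per the submitters' processing notes, reads were trimmed with cutadapt 1.15 and aligned with Bowtie2 2.3.3.1, build hg38. How reactivities were computed and scaled is not given in the sources used here. Per condition and transcript, the authors deposited 3 scores (maximum, average and standard deviation of reactivity) and the Gini index, a fraction. The column names say combined, which was taken to mean combined replicates. Those of the knockdown carry the prefix kd1, which the labels do not explain, so which knockdown it denotes is not known. Read depth is unknown, and the level of TDP-43 mRNA was not analysed here. No filter was applied.

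Positions were the smallest number that made certain sums whole in both tables. For the mitochondrial mRNAs these were the sum of reactivities (3 decimals), the sum of squares and the Gini numerator. The tolerance was 0.01 for the Gini numerator, 0.05 for the squares and smaller for the sum. For all other transcripts the squares were not used, and only this search without squares was tested on simulated data. The lower bound of reactive positions is the squared average over the sum of squared average and variance. The text names all 7 members, whatever their values. Members and lists were chosen with earlier results of these data known. Nuclear complex I subunits were not analysed here, since the gene table pairs no Ensembl identifiers, and no mitochondrial sequence was used. Alternatives were scalings, pseudocounts, fold thresholds and other backgrounds. Tools were Python 3.11.15 with pandas 2.3.3, numpy 2.4.6, matplotlib 3.10.9 and scipy 1.17.1.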

Additional observations from a re-analysis of the deposited data

How the results depend on the processing

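Each table holds 1 combined value per transcript, so depth and replicate spread limit every difference by an unknown amount. No paired analysis was possible because the columns carry no replicate numbers, and no replicate could be left out. The higher average of 5 members depended on scale. With division by the mean over all transcripts 2 were higher, and the ratios of MT-ND1, MT-ND2 and MT-ND3 became 0.964, 0.983 and 0.966. By percentile rank 0 were higher, with shifts of -3.9, -11.6, -7.3, -4.4 and -6.1 points for MT-ND1 to MT-ND5 without MT-ND4L. Division by the median and pseudocounts of 0.01 and 0.1 turned no average. For the Gini index, percentile rank turned MT-ND2 (5.5 points) and MT-ND5 (2.1 points), so 3 members were higher; no other setting turned one. The 3 higher standard deviations became 0, 1 and 0 with division by the median, by the mean and by percentile rank. The ratios were 0.887, 0.888 and 0.948 by the median for MT-ND2, MT-ND4 and MT-ND5, and 0.993 by the mean for MT-ND2 and MT-ND4. In percentile rank they shifted by -13.7, -24.6 and -13.6 points. The 2 higher maxima became 0, 1 and 1 under the same settings, with MT-ND5 at 0.926, 0.954 and -6 points and MT-ND6 at 0.983 by the median. Division moves all transcripts alike, and for the ranks the cause was not tested. At 1.1-fold, added after the values were seen, 5 members were higher (42.5% of transcripts) and 1 lower (40.4%), and at the lower planned threshold none, where 30.9% of transcripts were higher and 20.4% lower, with MT-ND5 just short of it at 1.249. At 2-fold none was past it, against 0.851% and 0.115%. Other backgrounds that hold all 7 left the members' counts as they were, and the share of transcripts with a higher average lay between 49.6% and 64%. In the same backgrounds the share with a lower Gini index lay between 36.1% and 46.2%. The sample formula moved no coefficient of variation by over 0.1 on the log2 scale.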

Other observations

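Summed over their 6216 positions, the 7 complex I mRNAs had a position-weighted average of 0.241 without and 0.276 with knockdown, and without MT-ND6 it was 0.237 and 0.279 over 5711 positions. The other 6 mitochondrial mRNAs had 0.238 and 0.263 over 4919 positions. MT-ND5, the longest, gave 434.6 of the total of 1497.1 in control and 542.7 of 1713.9 in knockdown, so these sums lean on it.

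Likeness to other transcripts was measured as the distance over 8 values, the 4 measures in both conditions, each standardised over all transcripts. Of the 35 nearest transcripts, 5 for each member, 2 were other members, 1 was another mitochondrial mRNA and 32 were neither. MT-ND4 and MT-ND5 were near each other, at a distance of 0.233, and MT-ATP6, for a subunit of the ATP synthase, was the nearest to MT-ND4, at 0.212. The median distance of all transcripts was 2.62 from MT-ND4. The nearest to MT-ND3 was ENST00000547747.1, at 0.134, and the nearest to MT-ND6 was ENST00000464205.6, at 0.0776. These identifiers are not paired with gene names in the tables.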
